A study of Danio rerio with 12 samples.

Results

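The genotype by age interaction in zebrafish ovary asks which genes changed differently between 47 and 61 days post fertilization (dpf) in adamts9 mutants and in wild type. It was computed for each gene as the log2 age change in mutant minus the log2 age change in wild type, which is the same number as the mutant difference at 61 dpf minus that at 47 dpf. A positive value therefore means that the mutant's age change lay above that of wild type. All 12 libraries of the series entered, 3 in each of 4 groups. Of 26172 lines in the deposited table, 1 without a name and 17 with a calendar date for a name were left out, and 21393 of the 26154 named genes had counts high enough to test.

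Polyadenylated RNA of ovary was sequenced from wild type fish of the AB strain and from fish labelled mutant, at 47 dpf and at 61 dpf, with no treatment named in the labels. The series title names adamts9 as the gene under study. The labels give neither the allele, the zygosity nor the strain of the mutants, and they do not say whether a replicate was 1 animal or a pool, so the p-values measure a spread that may be technical in part. Ages differ between the series' design text and the sample labels, and those of the labels were followed.

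Adamts9 is a secreted metalloprotease that cleaves proteoglycans of the extracellular matrix. In the fish ovary, granulosa and theca cells surround each oocyte, and pituitary gonadotropins act through their receptors on these cells to drive follicle growth. Estrogen made by the follicle induces yolk precursor (vitellogenin) in the liver, and the growing oocyte takes it up, while the oocyte itself makes the zona pellucida proteins of the egg coat. In bulk RNA of a whole ovary, fewer cells of a type and less RNA per cell cannot be told apart.

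Ovary markers were present in every library: the 19 tested zona pellucida genes summed to between 4704 and 32050 CPM (counts scaled to a common library size) and the oocyte growth factor gene gdf9 lay between 57.6 and 91.0 CPM. Total counts ranged from 16439538 to 38720166 per library, and a count of 0 allows up to 0.0775 to 0.182 CPM, which covers counting error only. The wild type libraries of 61 dpf stood apart from the other 9. On the first principal component, with 26.2% of the variance, they lay at 42.81 to 105.52, and the other 9 lay between -59.05 and 1.12. They also differed most among themselves, with a median SD of log2 CPM of 0.44, against 0.23 for mutant at 61 dpf, 0.28 for wild type at 47 dpf and 0.30 for mutant at 47 dpf. Transcripts of adamts9 were between 9.99 and 18.9 CPM in all 12 libraries, with overlap of all 4 groups and an interaction of 0.29 ± 0.31 (log2, SE), so that its level does not check the genotype labels.

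No gene passed the interaction test. By edgeR's quasi-likelihood test, 0 of 21393 genes (0%) had an adjusted p under 0.05, and the smallest adjusted p was 0.0871. At an unadjusted p under 0.05 there were 1812 genes (8.47%), of which 940 were positive (4.39%) and 872 negative (4.08%). DESeq2 on the same counts called 102 genes (0.529%), 55 positive (0.285%) and 47 negative (0.244%), and limma's voom with a weight for each group called 0, with 1661 genes under an unadjusted p of 0.05. Without single libraries, edgeR called 3 genes (wild type 47 dpf replicate 1), 2 (mutant 61 dpf replicate 2) or 1 (mutant 47 dpf replicate 2, wild type 61 dpf replicate 1 and wild type 61 dpf replicate 3 in turn). The difference of differences carried more error than the simple comparisons, with a median SE of 0.45 against 0.32, a ratio of 1.41.

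The simple comparisons from the same fit gave very unequal counts. From 47 to 61 dpf, 327 genes changed in wild type (1.53%), 158 upward (0.739%) and 169 downward (0.79%), by edgeR at an adjusted p under 0.05. In mutant the same comparison called 0 genes (0%), with 820 under an unadjusted p of 0.05 (3.83%), and DESeq2 called 23. Between genotypes, 19 genes differed at 47 dpf (0.0888%), where mutant was higher for 10 (0.0467%) and lower for 9 (0.0421%). At 61 dpf 390 differed (1.82%), with mutant higher for 262 (1.22%) and lower for 128 (0.598%). A call in one genotype and none in the other does not show a difference between them; the interaction is that test, and it called no gene.

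Those counts moved with single libraries. The wild type age count of 327 was 34, 16 and 93 without wild type 47 dpf replicates 1, 2 and 3, and 842 and 51 without wild type 61 dpf replicates 1 and 3. It was 177 without mutant 47 dpf replicate 3, and 175, 161 and 145 without mutant 61 dpf replicates 1, 2 and 3, which are in neither group compared but share the estimate of spread. The count of 390 at 61 dpf was 36, 27 and 29 without mutant 61 dpf replicates 1, 2 and 3, and 1637 and 58 without wild type 61 dpf replicates 2 and 3. It was 207 and 79 without wild type 47 dpf replicates 1 and 2, and 205 and 163 without mutant 47 dpf replicates 2 and 3. The mutant age count of 0 became 7 without mutant 47 dpf replicate 3.

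The counts also moved with the method. For wild type age, DESeq2 called 1669 genes (938 up and 731 down), voom with group weights 18 and the test against a fold of 2 called 4, while upper-quartile scaling gave 92 up and 219 down. At 61 dpf, DESeq2 called 2420 genes, with mutant higher for 1098 and lower for 1322, voom 36, the test against a fold of 2 called 9, and upper-quartile scaling 1008, with 894 higher and 114 lower. At 47 dpf DESeq2 called 171 genes and the test against a fold of 2 called 10.

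**Figure D1:**
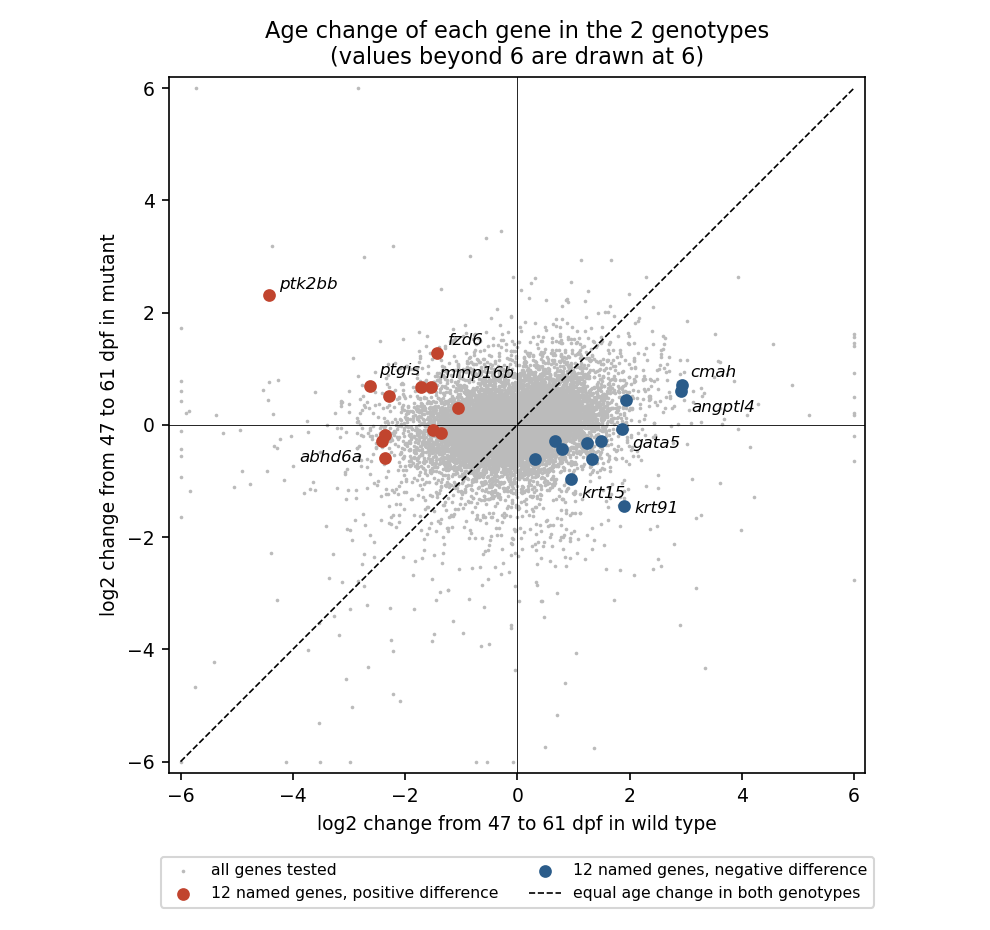
Each point is 1 of 21393 genes, with its log2 change from 47 to 61 dpf in wild type on the x axis and in mutant on the y axis. The 24 marked genes are the 12 positive and 12 negative with the smallest interaction p among genes with a symbol and a mean of at least 1 log2 CPM; they lie far from the dashed line of equal change, and ptk2bb lies farthest to the upper left, at -4.43 and 2.32.

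Age changes that were called in wild type ran mostly in the same direction in mutant and were smaller there. The age changes of the 2 genotypes share no library, so one can be set beside the other, although the wild type values chose the genes, which raises their size there, and libraries of 1 age could share steps that the labels do not record. The 158 genes that rose in wild type had a median of 1.55 there and of 0.32 in mutant (quartiles 0.12 and 0.60), and 135 of them (85.4%) were above 0 in mutant, against 49% of all genes. The 169 genes that fell in wild type had a median of -1.57 there and of -0.15 in mutant (quartiles -0.38 and 0.05), and 116 (68.6%) were below 0 in mutant, against 51% of all genes. At an unadjusted p under 0.05, 29 of the 158 were higher and 3 lower with age in mutant, and 19 of the 169 were lower and 3 higher, beside 1.83% of all genes higher and 2% lower.

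The mutant differences called at 61 dpf mostly had the same sign at 47 dpf and were smaller there. The 262 genes higher in mutant at 61 dpf had a median of 1.52 there and of 0.23 at 47 dpf, where 196 (74.8%) were above 0, against 52.7% of all genes. The 128 genes lower at 61 dpf had a median of -1.32 there and of -0.27 at 47 dpf, where 104 (81.2%) were below 0, against 47.3%. Here the 61 dpf values chose the genes, and 6 of the 262 and 8 of the 128 were also called at 47 dpf. Over all genes 0.0467% were called higher and 0.0421% lower in mutant at 47 dpf.

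**Figure D2:**
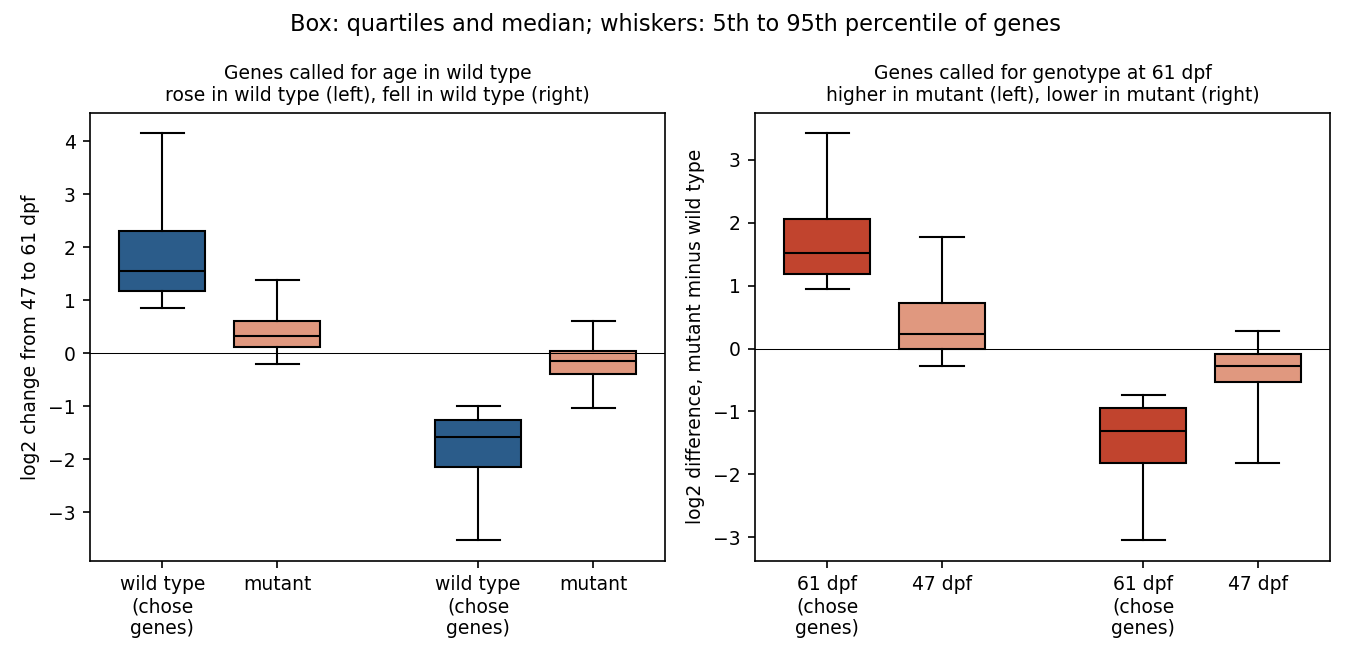
Left, the log2 age change of genes called for age in wild type, in the libraries that chose them and in mutant; right, the log2 mutant difference of genes called at 61 dpf, there and at 47 dpf. Boxes hold the median and quartiles of genes and whiskers the 5th to 95th percentile; the medians 1.55 and -1.57 in wild type stand beside 0.32 and -0.15 in mutant, and 1.52 and -1.32 at 61 dpf beside 0.23 and -0.27 at 47 dpf.

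In most genes with a small interaction p it was the mean of the 61 dpf wild type libraries that stood apart. Among the 1812 genes with an unadjusted p under 0.05, the 61 dpf wild type mean was the group mean farthest from the others in 68.4%, against 47.4% of all genes tested. All 3 wild type libraries of 61 dpf lay below the other 9 in 555 of the 940 positive genes (59%). In 301 of the 872 negative genes (34.5%) they lay above the other 9. Over all genes they lay below in 5.78% and above in 4.86%. The difference of differences gives each group equal weight, so a group that stands apart moves it by construction.

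The matrix genes mmp16b, col7a1l and cmn and the receptor gene pdgfra, all among the genes of smallest p, were positive. Growth factor genes went both ways, with gsdf positive and bmp15 negative. Expression of mmp16b, a membrane-bound matrix metalloproteinase, was 8.29, 6.67 and 6.42 CPM in wild type at 47 dpf and 6.95, 8.57 and 6.07 in mutant. At 61 dpf it was 2.0, 3.26 and 2.11 in wild type and 14.2, 9.50 and 10.8 in mutant. All 3 wild type libraries of 61 dpf were thus below, and all 3 mutant libraries of 61 dpf above, every other library. Its interaction was 2.22 ± 0.37 (edgeR adjusted p = 0.163); it fell by 1.54 with age in wild type (adjusted p = 0.027), and the age change in mutant was 0.68 (adjusted p = 1).

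Receptor gene pdgfra, which binds platelet-derived growth factor and marks stromal cells, was 30.0, 23.5 and 27.1 CPM in wild type and 24.3, 30.0 and 29.5 in mutant at 47 dpf. At 61 dpf the wild type libraries were at 9.45, 11.5 and 10.6 CPM and the mutant libraries at 21.1, 27.9 and 27.2. The 61 dpf wild type libraries lay below the other 9, which overlapped one another. The interaction was 1.22 ± 0.26 (edgeR adjusted p = 0.321), with a fall by 1.35 in wild type (adjusted p = 0.013) and -0.14 in mutant.

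The collagen gene col7a1l, named as like the collagen of anchoring fibrils, had the same shape. It was between 19.4 and 29.2 CPM in the 6 libraries of 47 dpf, then 9.42, 8.65 and 8.47 in wild type and 25.7, 17.1 and 24.7 in mutant at 61 dpf (interaction 1.4 ± 0.30, edgeR adjusted p = 0.321). Calymmin (cmn), a matrix protein of the zebrafish notochord sheath, was 1.37 to 2.90 CPM at 47 dpf, 0.473 to 0.945 in wild type at 61 dpf, and in mutant of that age 3.17 to 4.33, with no overlap between the latter groups and the rest.

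Gonadal soma derived factor (gsdf), a growth factor of granulosa and Sertoli cells in fish, was 93.3, 51.3 and 52.1 CPM in wild type and 47.4, 97.0 and 79.6 in mutant at 47 dpf. At 61 dpf it was 17.1, 18.9 and 9.93 CPM in wild type and 36.1, 44.8 and 53.6 in mutant. The 61 dpf wild type libraries were the 3 lowest, and those of the other groups overlapped. It fell by 2.1 in wild type (adjusted p = 0.024), against -0.74 in mutant, an interaction of 1.36 ± 0.47 (unadjusted p = 0.0127, edgeR adjusted p = 0.494).

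Other positive genes were abhd6a, olfcq14, ptk2bb, pimr201, ftr39p, fzd6 and adgrg2a. The lipid hydrolase gene abhd6a was 77.4, 56.1 and 86.0 CPM in wild type and 52.1, 42.7 and 27.3 in mutant at 47 dpf, then 11.9, 12.7 and 17.0 in wild type and 33.6, 37.3 and 29.0 in mutant (interaction 2.11 ± 0.36, edgeR adjusted p = 0.185). Wild type thus went from the highest group to the lowest; the gene lies on the chromosome of adamts9 in RefSeq's GRCz12tu. The focal adhesion kinase gene ptk2bb (6.75 ± 1.31) was 12.1, 21.6 and 24.4 CPM in wild type at 47 dpf and 0.731, 0.804 and 1.16 at 61 dpf, a fall by 4.43 on the log2 scale (edgeR adjusted p = 0.0485). In mutant it was 1.2 to 3.2 CPM at 47 dpf, and at 61 dpf replicate 2 was at 28.7 and replicates 1 and 3 at 2.08 and 1.67; without that replicate the interaction was 4.23. The genes olfcq14, pimr201 and ftr39p belong to large families of like copies, so their counts may be divided between copies and are uncertain. The Wnt receptor gene fzd6 (2.70 ± 0.57) at 61 dpf was 7.51 to 9.63 CPM in mutant against 2.44 to 2.74 in wild type, but its 47 dpf wild type libraries spread from 2.56 to 10.7. The adhesion receptor gene adgrg2a (2.16 ± 0.46) was 2.38 to 4.59 CPM in wild type at 61 dpf, while the other 9 libraries had 9.06 to 20.6.

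Genes of prostaglandin synthesis went both ways. Prostacyclin synthase (ptgis) was 3.77, 5.83 and 4.16 CPM in wild type and 3.66, 2.17 and 2.67 in mutant at 47 dpf, and 0.785, 0.662 and 0.774 in wild type and 2.25, 6.04 and 5.57 in mutant at 61 dpf. Every 61 dpf wild type library was below every other library, and the interaction was 3.31 ± 0.53 (edgeR adjusted p = 0.135). Cyclooxygenase gene ptgs1, whose enzyme makes the precursor that ptgis uses, was 3.28, 2.29 and 5.27 CPM in wild type and 5.44, 5.19 and 6.03 in mutant at 47 dpf, and 7.96, 8.37 and 11.1 in wild type and 3.31, 3.53 and 4.12 in mutant at 61 dpf. Here the 61 dpf wild type libraries were the highest, and the interaction was -1.95 ± 0.41 (edgeR adjusted p = 0.321). In wild type ptgis fell by 2.62 (adjusted p = 0.016) and ptgs1 rose by 1.34 (adjusted p = 0.048) with age. Of 21 tested genes of the prostaglandin and ovulation list, 2 were positive and 3 negative at an unadjusted p under 0.05 (23.8%). Over all genes 4.39% were positive and 4.08% negative, 8.47% together. These shares stand beside every list count below, and no list share was tested against them. The list median was 0.27 beside -0.04 over all genes. Besides ptgis and ptgs1, the genes were npr1a (0.90), hpgd (-1.61) and pgr (-0.87).

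Negative genes included cmah, gata5 and the gonadotropin receptors. The enzyme gene cmah, which converts sialic acid to its glycolyl form, was 1.84, 2.93 and 2.14 CPM in wild type and 2.22, 2.59 and 2.62 in mutant at 47 dpf. At 61 dpf it was 16.5, 15.4 and 21.4 CPM in wild type and 3.80, 4.48 and 3.84 in mutant. Wild type at 61 dpf stood above all others. The interaction was -2.24 ± 0.33 (edgeR adjusted p = 0.115); cmah rose by 2.94 in wild type (adjusted p = 0.001), and its age change in mutant was 0.71 (adjusted p = 1).

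The transcription factor gene gata5 was 1.32, 0.991 and 1.07 CPM in wild type and 1.51, 1.69 and 1.09 in mutant at 47 dpf, and 4.33, 3.97 and 4.08 in wild type and 1.1, 1.56 and 1.39 in mutant at 61 dpf. The 3 wild type libraries of 61 dpf were again above the other 9. The interaction was -1.94 ± 0.38 (edgeR adjusted p = 0.299).

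**Figure D3:**
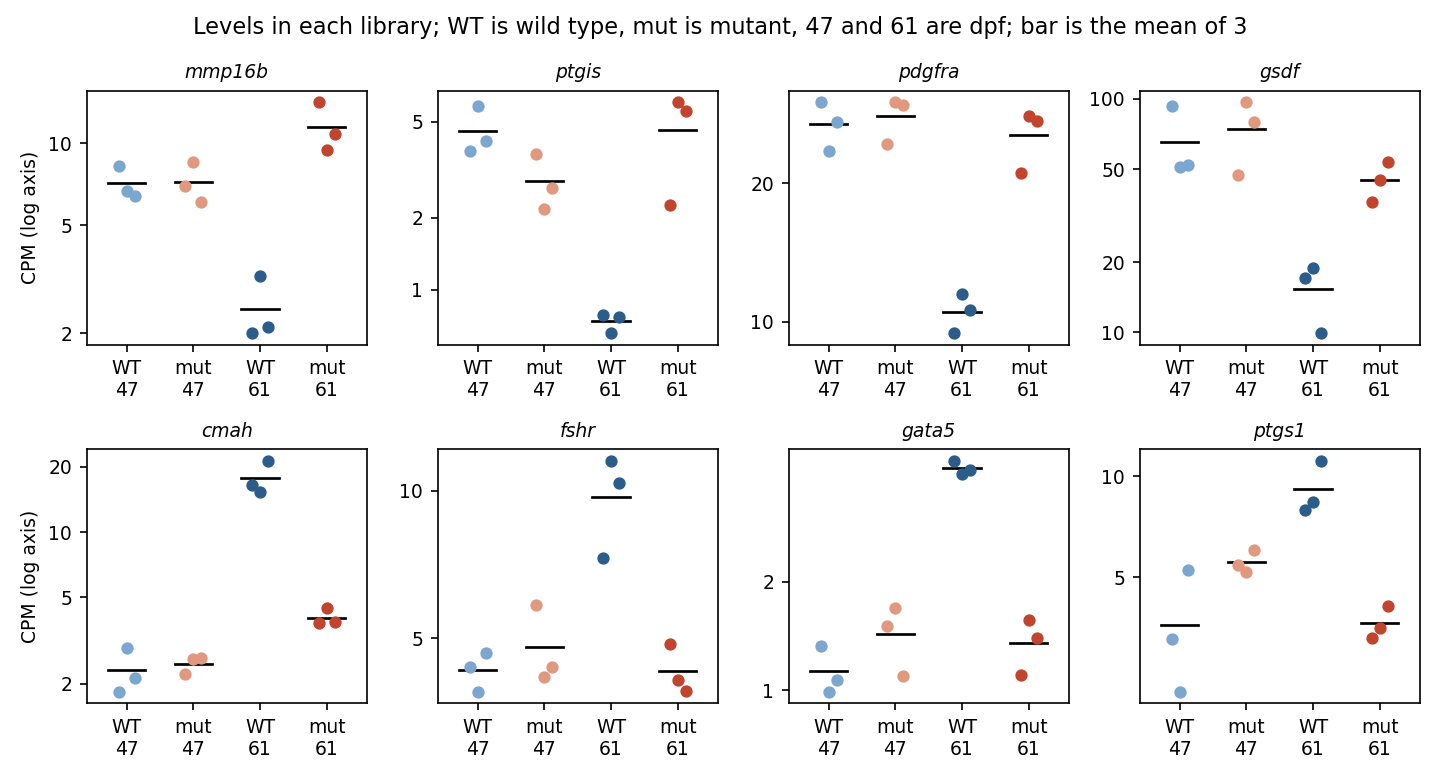
Level in CPM (log axis) of 8 genes in each of the 12 libraries; each point is a library and each bar the mean of 3. In the upper row the 61 dpf wild type libraries are the lowest (mmp16b at 2.0 to 3.26 CPM, gsdf at 9.93 to 18.9), and in the lower row they are the highest (cmah at 15.4 to 21.4, fshr at 7.31 to 11.5).

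The receptor of follicle-stimulating hormone (fshr), which granulosa cells carry, was 4.37, 3.89 and 4.66 CPM in wild type and 5.85, 4.16 and 4.37 in mutant at 47 dpf. At 61 dpf it was 7.31, 11.5 and 10.4 CPM in wild type and 4.86, 4.11 and 3.90 in mutant. Every 61 dpf wild type library exceeded the other 9. In wild type fshr rose by 1.17 (adjusted p = 0.038), against -0.16 in mutant, and the interaction was -1.34 ± 0.34 (unadjusted p = 0.00189, edgeR adjusted p = 0.395).

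The luteinizing hormone receptor gene lhcgr was 1.36, 0.80 and 0.573 CPM in wild type and 2.5, 1.21 and 1.4 in mutant at 47 dpf, and 2.49, 3.78 and 2.28 in wild type and 2.12, 1.2 and 1.5 in mutant at 61 dpf. Its 61 dpf groups did not overlap with each other, but the 61 dpf wild type libraries overlapped the 47 dpf mutant ones; the interaction was -1.73 ± 0.58 (edgeR adjusted p = 0.489). The glucocorticoid receptor gene nr3c1 rose by 1.12 in wild type (adjusted p = 0.036), from 12 to 16.0 CPM up to 22.5 to 36.0, and was 10.6 to 15.1 and 12.7 to 15.1 CPM in mutant at the 2 ages (interaction -1.0 ± 0.31, edgeR adjusted p = 0.461). Of 27 tested genes of the granulosa and theca list, 1 was positive (gsdf) and 4 negative at an unadjusted p under 0.05 (18.5%, beside 8.47% of all genes). The negative ones were fshr, lhcgr, bmpr2b (-1.06) and nr0b1 (-1.72). The list median was -0.14, and 0.08 without mutant 61 dpf replicate 1. Other genes of these cells gave amh -0.17 ± 0.43, foxl2a 0.41 ± 0.47, inha -0.14 ± 0.51, and cyp19a1a, the aromatase that makes estrogen, -1.80 ± 0.98. Of 15 tested steroid receptor genes, 1 was positive (esr1 at 2.80) and 2 negative (nr3c1 and pgr), together 20%. Of 24 steroid synthesis genes 1 was negative (hsd11b2 at -1.25, 4.17%), with star at 0.47 ± 0.44 and cyp17a1 at 0.21 ± 0.30.

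Further negative genes were krt15, krt91, dlgap5, panx1a, angptl4, rereb, nras, arhgap42b and enoph1. For krt15, a keratin, the mutant libraries of 47 dpf lay above all others, with 24.2, 25.3 and 24.3 CPM. Those of wild type at 47 dpf lay below all others, with 12.1, 5.79 and 6.65 CPM, the first of them only narrowly. At 61 dpf krt15 was 15.3, 14.2 and 18.2 CPM in wild type and 12.9, 12.8 and 12.2 in mutant (interaction -1.92 ± 0.36, edgeR adjusted p = 0.292). For the keratin gene krt91 (-3.35 ± 0.73) no group lay apart from all other libraries. At 47 dpf it was 2.83 to 4.93 CPM in wild type and 8.63 to 29.1 in mutant, without overlap. At 61 dpf it was 8.82 to 17.6 CPM in wild type and 3.73 to 10.6 in mutant, with overlap. The channel gene panx1a was 7.52 to 16.3 CPM in wild type at 61 dpf, while the other 9 libraries had 3.06 to 4.57 (-1.79 ± 0.39). The lipoprotein lipase inhibitor gene angptl4 was 7.99 to 12 CPM in wild type at 61 dpf and 1.08 to 1.53 at 47 dpf, beside 2.94 to 5.68 and 1.63 to 4.24 in mutant (-2.32 ± 0.51). The other 5 had interactions from -0.92 (the small GTPase gene nras) to -1.57 (arhgap42b), with dlgap5, which codes for a mitotic spindle protein, at -1.22. The edgeR adjusted p of the 24 genes named so far as smallest in p ran from 0.115 (cmah) to 0.366; DESeq2 called all 24.

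Vitellogenin transcripts were highest in wild type at 61 dpf. There, 4 of the 6 tested genes rose with age (edgeR adjusted p under 0.05), beside 0.739% of all genes. Together the 6 summed to 2.48, 2.90 and 1.49 CPM in wild type, beside 8.87, 3.38 and 2.71 in mutant, at 47 dpf, and at 61 dpf to 103, 14.1 and 116 in wild type, beside 12, 2.69 and 1.84 in mutant. The lowest 61 dpf wild type library, replicate 2, was only a little above the highest mutant library, and the other 2 were far above it. For vtg1, with 0.280, 0.381 and 0.306 CPM in wild type at 47 dpf, the interaction was -6.92 ± 1.85 (edgeR adjusted p = 0.397), and all 6 genes were negative at an unadjusted p under 0.05. The vitellogenin copies are alike in sequence, so single copies are uncertain, and several lay near the count floor at 47 dpf, so the sum is the safer value. Vitellogenin is known as a liver product. The 27 tested liver markers summed to 72.8, 37.4 and 58.1 CPM in the 61 dpf wild type libraries, and to 46.4 to 401 CPM in the other 9. In mutant, replicate 1 had the highest liver sum (401 CPM at 47 dpf, 137.5 at 61 dpf) and the highest vitellogenin sum of its group. Wild type 61 dpf replicate 2 was the lowest of its group in both. In wild type at 47 dpf the highest liver and vitellogenin sums were in different libraries. Whether liver tissue added to these counts was not tested.

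Of 31 tested genes of lipid uptake and apolipoproteins, 1 was positive (lrp2b at 1.32) and 5 negative at an unadjusted p under 0.05 (19.4%, beside 8.47% of all genes). The list median was -0.27, and 0.14 without mutant 47 dpf replicate 1. Apolipoprotein E (apoeb), a lipid carrier, was 1.4, 0.648 and 1.53 CPM in wild type and 22.5, 1.93 and 5.33 in mutant at 47 dpf, and 66.3, 6.10 and 159 in wild type and 17.2, 16.5 and 8.80 in mutant at 61 dpf. The same 2 wild type libraries that were high in vitellogenin were high here, and replicate 2 lay below all 61 dpf mutant libraries (interaction -5.51 ± 1.42, edgeR adjusted p = 0.397). The endocytic receptor gene lrp1aa (-1.05) and the yolk-processing protease gene ctsd (-0.72) were also negative, with apoa1a (-2.84) and apoc1 (-4.07), while the gene vldlr, whose product is a lipoprotein receptor, gave -0.13 ± 0.31.

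The 19 tested egg coat genes had no member under an unadjusted p of 0.05. Of them 18 were positive, beside 46.7% of all genes, with a median of 0.66. Measured in the same libraries, these genes are not separate observations. Their sum was 23580, 24750 and 29600 CPM in wild type and 23110, 32050 and 26130 in mutant at 47 dpf, and 23240, 4704 and 6259 in wild type and 18820, 17690 and 22040 in mutant at 61 dpf. Wild type replicate 1 at 61 dpf was like the 47 dpf libraries, and replicates 2 and 3 were far below all others. Without replicate 1 the median was 1.73, and without replicate 2 it was 0.27. Single genes gave zp3f.1 2.09 ± 1.35, zp2.6 1.19 ± 0.82 and zp3b 0.53 ± 0.57.

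**Figure D4:**
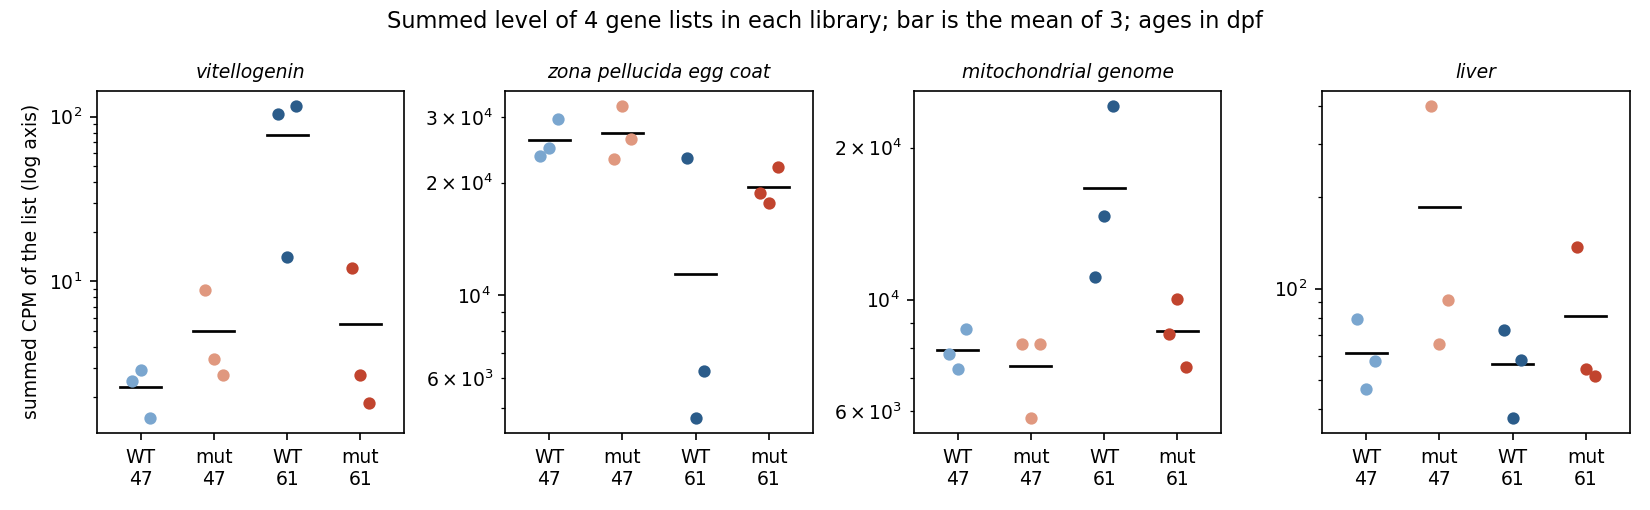
Summed CPM (log axis) of 4 gene lists in each library; points are libraries and bars the means of 3. In wild type at 61 dpf the vitellogenin sum is 14.1 to 116 CPM, the egg coat sum splits into 1 library at 23240 and 2 at 4704 and 6259, the mitochondrial sum is 11070 to 24190, and the liver sum is 37.4 to 72.8.

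All 13 genes of the mitochondrial genome were negative, 4 of them at an unadjusted p under 0.05 (30.8%, beside 8.47% of all genes), with a median of -0.92. Their sum was 7813, 7277 and 8722 CPM in wild type and 8181, 5833 and 8170 in mutant at 47 dpf, and 11070, 14630 and 24190 in wild type and 8550, 10040 and 7340 in mutant at 61 dpf. The 3 wild type libraries of 61 dpf were the highest, with replicate 1 close to the highest mutant library. These genes are transcribed together from 1 small genome, so they are not separate observations. The respiratory subunit gene mt-nd2 rose by 1.97 in wild type (adjusted p = 0.0338), with an interaction of -1.55 ± 0.53.

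Few genes of each oocyte and germ cell list had an unadjusted p under 0.05, beside 8.47% of all genes. The share was 10% for oocyte transcription, 0% for germ plasm, 15.4% for meiosis and 4% for oocyte maturation genes. Resting on so few genes, these shares do not tell the lists apart. Of 20 oocyte transcription and maternal genes, 1 was positive and 1 negative at an unadjusted p under 0.05. The first was figla, the factor that activates egg coat genes, at 23.2, 21.8 and 37.3 CPM in wild type at 61 dpf against 43.9 to 68.7 in the other 9 libraries (0.80 ± 0.33). The second was bmp15, an oocyte-secreted growth factor, at 236, 285 and 539 CPM in wild type at 61 dpf against 147 to 229 in the other 9 (-0.94 ± 0.40). Its partner gdf9 gave 0.24 ± 0.21. Of 23 germ plasm and piRNA genes, 0 passed an unadjusted p of 0.05 and their values lay between -0.69 and 0.44, with ddx4 (vasa) at -0.07 ± 0.66. Of 26 meiosis genes 4 were positive (dmc1 at 2.64, msh5 at 3.09, stag3 at 0.96 and msh4 at 1.61). Of these, msh5 was at most 1.56 CPM in any library. In wild type dmc1 was 2.32, 0.915 and 0.688 CPM at 47 dpf and 0.215 to 0.284 CPM at 61 dpf. Of 25 oocyte maturation genes 1 was negative (fbxo43 at -1.48).

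Genes of testis somatic cells were split. Of 23 tested, 2 were positive (pdgfra and gsdf) and 2 negative (hsd11b2 and sox9b) at an unadjusted p under 0.05 (17.4%, beside 8.47% of all genes). The list median was 0.14, and -0.05 without wild type 47 dpf replicate 1. At 61 dpf 5 of the 23 were higher in mutant (adjusted p under 0.05, beside 1.22% of all genes): gsdf, pdgfra, wt1a, wt1b and aldh1a2. These are not particular to testis, since gsdf is also in the granulosa and theca list and pdgfra marks stromal cells. Members without a call included dmrt1, amh and hsd11b2, with mutant differences at 61 dpf of -0.80, -0.29 and 0.31. The testis factor gene dmrt1 was 2.15 to 21.4 CPM over the 12 libraries, with overlap of all groups and an interaction of -0.23 ± 1.11. Of 27 spermatid and axoneme genes, 1 was positive (spata18 at 1.75, 3.7%).

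In the matrix lists more genes were positive than negative. Of 38 tested genes of the collagen list, 6 were positive and 0 negative at an unadjusted p under 0.05 (15.8%, beside 8.47% of all genes). The list median was 0.17, and -0.05 without mutant 47 dpf replicate 1. The list does not hold every collagen gene. It leaves out col9a2, which was negative (-2.81, edgeR unadjusted p = 0.0147). That gene was the 1 called without wild type 61 dpf replicate 1 (-3.32, edgeR adjusted p = 0.0336). The basement membrane chain col4a5 was 19.7 to 24.1 CPM at 47 dpf, 8.23, 12.6 and 8.69 in wild type at 61 dpf and 20.7, 23.8 and 18.8 in mutant (1.1 ± 0.28), and col18a1a gave 0.86 ± 0.22. Of 25 tested matrix metalloproteinases and their inhibitors, 4 were positive and 0 negative (16%, beside 8.47% of all genes), with a median of 0.54. The 4 were mmp16b, mmp23bb (1.94), mmp11a (1.85) and mmp28 (1.94). Of 45 proteoglycan and matrix glycoprotein genes 7 were positive and 3 negative (22.2%), with a median of 0.39 and values from -5.49 to 2.71.

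Of those, smoc2, a calcium-binding matrix protein gene, was 4.88 to 12.3 CPM at 47 dpf, 1.35, 2.55 and 0.860 in wild type at 61 dpf and 12.4, 9.86 and 5.85 in mutant (2.21 ± 0.61). Fibrillin gene fbn2b, a microfibril component, gave 1.22 ± 0.40. Of 20 basement membrane genes 2 were positive (10%), lamb2l (0.76 ± 0.29) and nid2b (1.52 ± 0.67). Of the 19 tested genes of the ADAMTS family itself, 0 passed an unadjusted p of 0.05, and the values lay between -0.58 and 0.79.

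Few genes of each signalling list had an unadjusted p under 0.05, beside 8.47% of all genes. The share was 18.8% for hedgehog, 9.09% for Wnt, 8.33% for immediate early, 5.71% for interferon and 5.41% for cell death genes. Such shares, too, rest on few genes and do not tell the lists apart. The hedgehog list had 1 positive (cdon at 1.07) and 2 negative of 16 tested: gli2b, a transcription factor of the pathway, at -2.33 ± 0.57, and ihhb, a ligand, at -1.82 ± 0.61. The Wnt list had 2 positive (sfrp5 and dkk1b) and 1 negative (rspo3 at -1.83) of 33, of which sfrp5 was at most 0.612 CPM and dkk1b at most 0.497 CPM in any library. The cell death list had 1 positive, cdkn1a, which codes for a cyclin-dependent kinase inhibitor (1.08 ± 0.35), and 1 negative, baxb (-0.85 ± 0.36), of 37. The interferon list had 2 positive (irf10 at 1.36 and rsad2 at 2.35) of 35, beside 4.39% of all genes, and 5 of the 35 were higher in mutant at 61 dpf (adjusted p under 0.05), beside 1.22% of all genes. The immediate early list had 1 positive (ier2b at 1.09) and 2 negative (nr4a2a at -2.23 and dusp2 at -1.49) of 36.

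Markers of other cells and tissues differed by group in some lists and by single libraries in others. Keratin and epithelium genes had 0 positive and 5 negative of 27 at an unadjusted p under 0.05 (18.5%, beside 8.47% of all genes), with a median of -0.44. Macrophage and neutrophil genes had 1 positive and 3 negative of 33 (12.1%), with a median of -0.32 that was 0.04 without mutant 47 dpf replicate 1. Lymphocyte genes had 0 and 1 of 21 (4.76%), and endothelial and mural genes 1 and 3 of 36 (11.1%). The endothelial and mural genes had sums at 47 dpf of 286.7 to 307.5 CPM (wild type) and 361 to 399.6 CPM (mutant), without overlap; at 61 dpf the sums were 303.8 to 394.8 and 378.6 to 415 CPM, with overlap. Erythroid genes (0 and 0 of 14) summed to 211.4 to 899 CPM in the 6 libraries of 47 dpf. In the 6 of 61 dpf they summed to 96.7 to 162.1 CPM. The globin genes hbba1 and hbaa1 and the red cell anion exchanger gene slc4a1a fell with age in wild type (edgeR adjusted p under 0.05). Over all genes 0.79% were called lower there. In mutant the list had no called gene. The log2 differences with age for hbba1 were -3.27 in wild type and -3.40 in mutant. Liver genes had a median of -1.22 and summed to 401 CPM in mutant 47 dpf replicate 1 against 37.4 to 137.5 in the other 11 libraries; without that library the median was 0.39. Exocrine pancreas genes had a median of -2.30, with sums from 25.7 to 2592 CPM and the highest in mutant 47 dpf replicates 3 and 1, and 0 of 23 passed an unadjusted p of 0.05. Skeletal muscle genes had a median of -0.45, which was 0.91 without mutant 47 dpf replicate 2, where they summed to 944 CPM against 146.4 to 309.3 elsewhere. The part of these tissues in the results above was not tested.

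**Figure D5:**
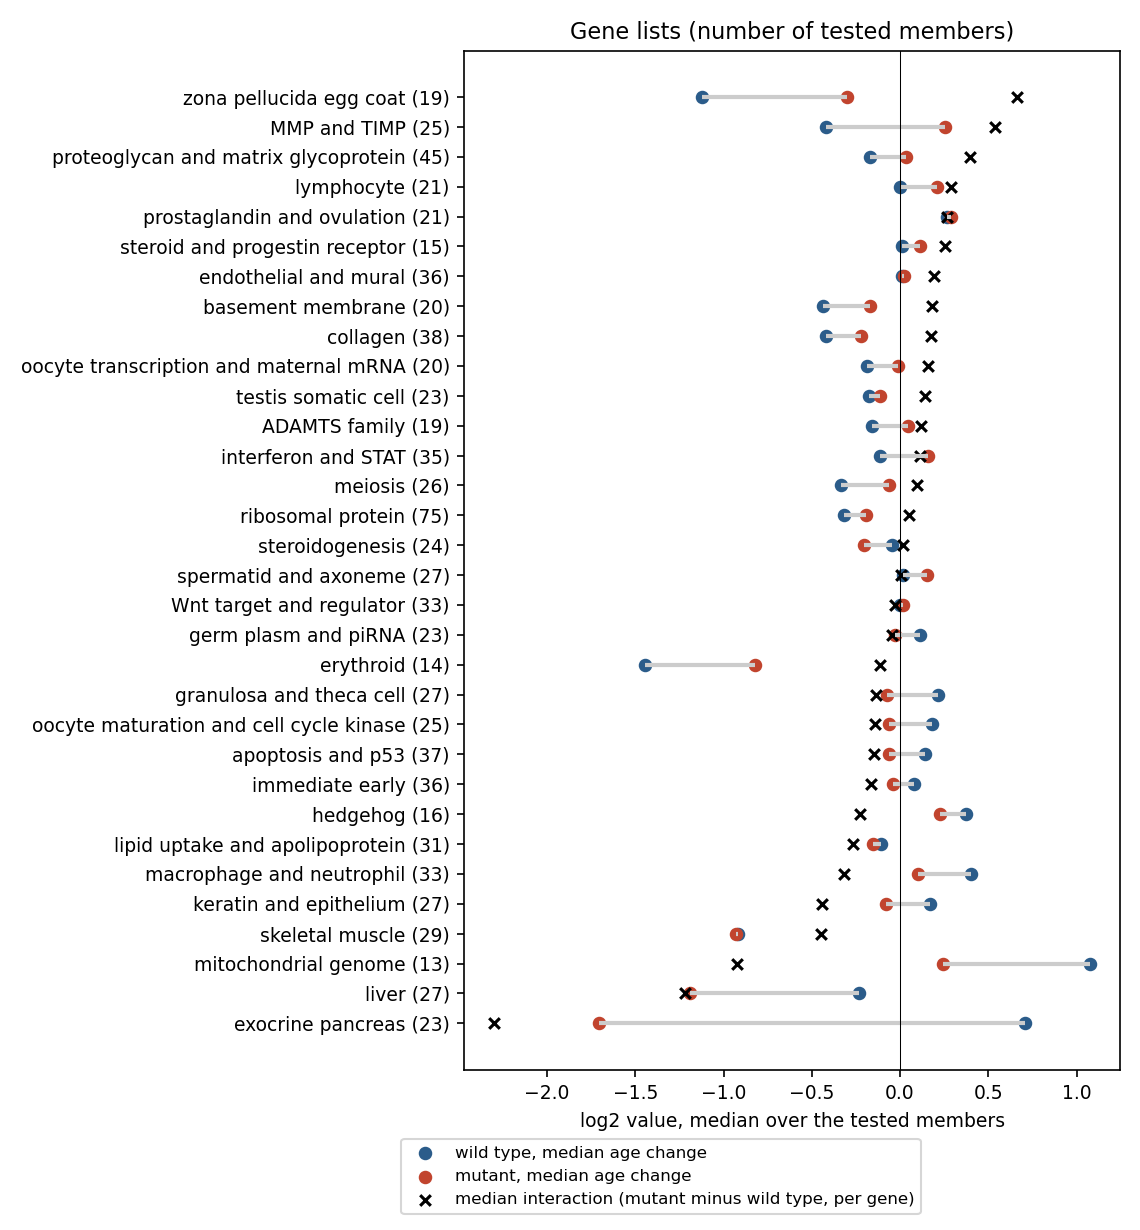
Median log2 age change over the tested members of each gene list in wild type and in mutant, and the median of the per-gene interactions (crosses); the number tested is in brackets. The vitellogenin list is not drawn because several members lay near the count floor; egg coat (0.66) and metalloproteinase genes (0.54) have the most positive interaction medians, and exocrine pancreas (-2.30), liver (-1.22) and mitochondrial genes (-0.92) the most negative.

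Small medians depend on scaling. Upper-quartile scaling moved the median interaction of all genes from -0.04 to 0.10, and with it the medians of the Wnt (-0.03), germ plasm (-0.05), erythroid (-0.11) and cell death (-0.15) lists to above 0. The 24 genes of smallest p and the medians of the metalloproteinase, egg coat, keratin and vitellogenin lists kept their sign under that scaling.

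Genes that already differed between genotypes at 47 dpf mostly kept the sign of that difference at 61 dpf. The 9 genes lower in mutant had a median of -2.38 at 47 dpf, which chose them, and of -2.16 at 61 dpf. The 10 genes higher in mutant had a median of 4.25 at 47 dpf and a smaller one of 1.76 at 61 dpf. The following genes were picked after their values were seen. The mitochondrial RNA-modifying enzyme gene rpusd4 was 44.6, 48.9 and 52.7 CPM in wild type and 7.67, 8.93 and 7.38 in mutant at 47 dpf, and 50.7, 43.3 and 39.6 in wild type and 6.12, 7.79 and 6.74 in mutant at 61 dpf. No mutant library reached any wild type library at either age, and the interaction was -0.08 ± 0.24. Of the 19 genes called at 47 dpf, 10 were higher and 9 lower in mutant. At 61 dpf, 9 of the 10 and all 9 of the 9 had the same sign, and 6 and 8 were called. Over all genes 50.4% were above 0 and 49.6% below 0 at 61 dpf, with 1.22% called higher and 0.598% called lower. By RefSeq's GRCz12tu, which places 12 of the 19, 8 of the 9 lower genes and 1 of the 10 higher genes lie on the chromosome of adamts9. Of the 21393 genes tested 17083 were placed, and that chromosome holds 596. Of those named here, rpusd4, uba3, prickle2b and tmf1 lie there. Interactions were 0.25 ± 0.43 for ogfrl2, -0.09 ± 0.30 for uba3, which codes for part of the NEDD8-activating enzyme, 0.06 ± 0.39 for the cell polarity gene prickle2b, -0.09 ± 0.33 for the keratin krt18a.1 and -0.58 ± 0.34 for tmf1.

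Among the 19, those with an unadjusted interaction p under 0.05 were opn6a, fn1b, CT027645.1 and si:ch211-269k10.5. Others had sizable values with a larger p, among them LO018315.3 (1.24 ± 0.72) and si:dkey-13m1.5 (-1.05 ± 0.63). The opsin gene opn6a was 7.01, 8.54 and 4.01 CPM in wild type and 0.958, 0.483 and 0.612 in mutant at 47 dpf, and 4.06, 6.0 and 8.51 in wild type and 2.65, 5.71 and 4.73 in mutant at 61 dpf. The genotypes were apart at 47 dpf and overlapped at 61 dpf (interaction 2.71 ± 0.58, unadjusted p = 0.000542, edgeR adjusted p = 0.322). Fibronectin gene fn1b, a matrix protein, ranged over 49.3 to 69.9 CPM in wild type at 47 dpf against 248 to 741 in mutant, and over 127 to 182 at 61 dpf against 248 to 546 (-1.53 ± 0.56).

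The lowest adjusted p came from CT027645.1 and smyhc3, each at 0 in all libraries of a group. The genes of this paragraph, too, were picked after their values were seen. CT027645.1, with no product annotated here, was at 0 in all 3 wild type libraries of 47 dpf and between 1.72 and 9.45 CPM in the other 9. The slow myosin heavy chain gene smyhc3 was at 0 in all 3 wild type libraries of 61 dpf and between 0.601 and 1.60 CPM in the other 9. Both had an edgeR adjusted p of 0.0871, and with a whole group at 0 the fitted fold is not given. The gene si:ch211-269k10.5 was 1.18 to 2.56 CPM in wild type at 47 dpf, while the other 9 libraries had 15.8 to 46.2 (-3.64 ± 0.57, edgeR adjusted p = 0.125). In all, 9 genes had an adjusted p under 0.2; the others were cmah, ptgis, mmp16b, abhd6a, si:ch73-215d9.1 (-3.40 ± 0.49) and si:dkey-24p1.1 (3.93 ± 0.60), the last 2 with no product annotated here.

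On the chromosome of adamts9, by RefSeq's GRCz12tu, 67 of 596 tested genes had an unadjusted interaction p under 0.05 (11.2%, beside 8.47% of all genes). Of these, 31 were positive and 36 negative, and the median over the 596 was -0.07. The difference in share was not tested. By genotype, 17 of the 128 genes lower and 10 of the 262 genes higher in mutant at 61 dpf lie there. Beside them stand 596 of the 21393 genes tested, of which 17083 were placed. How many of the 128 and the 262 were placed is not given, so these shares are not compared. Genes described above that lie there, besides adamts9, include rpusd4, gli2b, krt15, prickle2b, nr0b1, uba3, tmf1, abhd6a, ier2b, lrp1aa, opn6a and si:dkey-13m1.5.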

How the data were processed

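The deposited table holds estimated counts for each gene symbol in the 12 libraries. Kallisto and the GRCz11 assembly were used, per the submitters' processing notes; their versions, the annotation and the summing to genes are not stated there. Of the deposited values 45.4% were not whole (tolerance 1e-06), and all were rounded. The line without a name (at most 0.000113% of a library) and the date-named lines (at most 0.125%) were left out before library sizes. Groups came from the sample titles.

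R 4.3.3 was used. Low genes were removed by filterByExpr, TMM gave the scaling, and 1 model of the 12 libraries was fitted with edgeR 4.0.16 (glmQLFit, glmQLFTest) on a 4-level group factor, without a replicate block; the common biological coefficient of variation was 0.33. Calls are at a Benjamini-Hochberg adjusted p under 0.05 over 21393 genes; every adjusted p in the text is edgeR's. CPM values are TMM-scaled. The steps were run on simulated counts with the same spread in every group, where only the direction of planted changes was checked. Calls under an unequal spread between groups were not checked. Alternatives were DESeq2 1.42.0, voom with group weights in limma 3.58.1, 2 other scalings, 2 other filters, a test against a fold of 2, a replicate block and each library left out.

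The named genes are the 12 in each direction with the smallest interaction p (mean log2 CPM of at least 1, no clone name), since no gene was called, 20 key genes, up to 3 members of each of 31 lists (929 members written, 801 tested) and, added after the values were seen, genes with an adjusted p under 0.2 and those called at 47 dpf. The comparisons, genes and lists were chosen with earlier results of these data known. No sequence of these genes was used.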

Additional observations from a re-analysis of the deposited data

How the results depend on the processing

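The count of 0 called genes held under both other scalings, without a filter, with a stricter filter, under voom with group weights and in the test against a fold of 2. DESeq2 called 102 genes, 55 positive and 47 negative. With each library left out in turn, the count ranged from 0 to 3, with 0 to 2 positive and 0 to 1 negative. All 24 genes of smallest p kept their direction in every alternative, and all 24 had an unadjusted p under 0.05 in all but the test against a fold of 2, where 20 did; they were chosen for that p. Interactions that changed sign were those of genes with no small p. Upper-quartile scaling gave ddx4 0.064, vldlr 0.0245, rpusd4 0.057, uba3 0.040 and krt18a.1 0.058, and voom gave ddx4 0.056 and dmrt1 0.57. With single libraries left out, the values ranged from -0.34 to 0.28 for amh, -0.65 to 1.11 for dmrt1, -0.38 to 0.11 for inha, -0.52 to 0.23 for ddx4, -0.30 to 0.24 for vldlr, -0.18 to 0.070 for rpusd4, -0.028 to 0.59 for ogfrl2, -0.23 to 0.13 for uba3, -0.17 to 0.25 for prickle2b and -0.31 to 0.10 for krt18a.1. The cause was not tested.

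Deviations of same-numbered libraries from their group means correlated between -0.20 and 0.25 over 18 pairs (median 0.02). For other numbers it was -0.23 to 0.24 over 36 pairs (median -0.02). With means of 3 libraries, such values cannot show whether the numbers pair the samples. With the replicate block 0 genes were called (smallest adjusted p 0.211), the wild type age count was 115 and that at 61 dpf 86, and dmrt1 changed sign to 0.48.

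With 3 libraries a group and a median SE of 0.45, small interactions cannot be told from the spread between libraries, and genes near the count floor of 0.0775 to 0.182 CPM have unreliable fitted folds.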
